A study of Mus musculus with 2 samples.

Results

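The WASP, WAVE, WIP and IRSp53 families of actin regulators were examined in the comparison of 1 *Dullard*-/- and 1 *Dullard*+/- array of E7.5 mouse embryos. The 9 genes *Was*, *Wasl*, *Wasf1*, *Wasf2*, *Wasf3*, *Wipf1*, *Wipf2*, *Baiap2* and *Baiap2l1* were taken through the RefSeq accessions of the probes. All 9 were measured, that is, had a probe well above background on both arrays, out of 14771 genes measured. The families were chosen by the measured fold changes of *Was*, the lowest gene of this comparison, and *Baiap2l1*, among the highest, so those 2 values are a description and support nothing further.

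RNA of whole C57BL/6 embryos homozygous or heterozygous for the *Dullard* (*Ctdnep1*) mutation was measured with 1-colour Agilent arrays of the whole genome, 1 array per genotype. The sources used here do not say how many embryos went into each array. No wild-type array was analysed here, and the heterozygote, which carries 1 mutant allele, served as the control. The study made 2 mutant alleles, one lacking every exon and one with *LacZ* in place of some exons, and named embryos of both *Dullard*-/-. The sources used here do not say which allele the arrayed embryos had. Each genotype had a single array, so no replicates check the differences, no p-value can be given, and every difference below is between these 2 arrays. In RNA of whole embryos, fewer cells of a type and less RNA per cell cannot be told apart.

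*Dullard* itself, on a single probe, read 144 in *Dullard*-/- and 672 in *Dullard*+/-, a scaled value 4.31-fold lower. The *Dullard*-/- reading still counted as well above background, as did a signal as low as 7.27 on the same array. In the paper, neither in situ hybridization nor Q-PCR found *Dullard* mRNA in *Dullard*-/- embryos at E7.5. The source of the remaining signal was not tested. The markers of the labelled tissue were present. All 8 epiblast and all 12 visceral endoderm markers were measured on both arrays, as were 9 of 11 markers of the extraembryonic ectoderm and trophoblast. Signals were scaled to the 75th percentile of each array, 264 for *Dullard*-/- and 286 for *Dullard*+/-. No spot was saturated.

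These proteins control where branched actin filaments form. WASP, N-WASP and the WAVE proteins switch on the Arp2/3 complex, which starts a new filament on the side of an existing one. WASP and N-WASP respond to the GTPase CDC42 and are held by WIP proteins, whereas WAVE proteins sit in a complex that responds to RAC. IRSp53 and its relatives bend the membrane through an I-BAR domain and link these GTPases to WAVE and other actin regulators. At gastrulation such machinery drives the protrusions of migrating mesoderm, and in the adult WASP is mainly a protein of blood cells.

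In *Dullard*-/-, 1 of the 9 genes was higher and 1 was lower by 2-fold or more. Over all genes measured, 0.894% (132 genes) were higher and 0.765% (113 genes) were lower by that margin. Since the families were chosen for their extremes, nothing is read from this count. The other 7 genes lay within 1.5-fold, between -0.09 and 0.20 on the log2 scale, as did 92.7% of all genes. The median of the 9 genes was 0.15, and that of all genes 0.01. Without scaling between the arrays the split of all genes was 90 higher and 165 lower (35.3% higher, against 53.9% with scaling), and the median of all genes moved to -0.10.

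**Figure D1:**
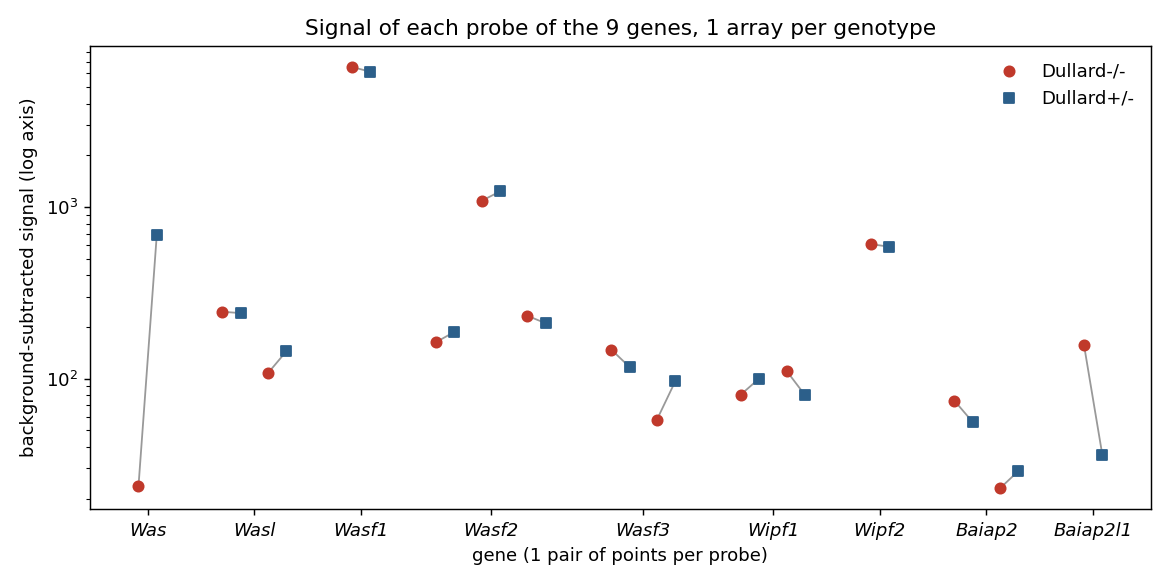
Background-subtracted signal (vertical log axis) of each probe of the 9 genes, with *Dullard*-/- as circles on the left and *Dullard*+/- as squares on the right of each pair, before scaling and with 1 array per genotype. The *Was* pair stands at 23.7 in *Dullard*-/- against 690 in *Dullard*+/-, and the *Baiap2l1* pair at 157 in *Dullard*-/- against 36.0 in *Dullard*+/-. Heights of different probes are not comparable.

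*Was* (NM_009515, chromosome X) encodes WASP, the founding member of the family, whose loss in people causes the immune and platelet disorder Wiskott-Aldrich syndrome. Its single probe gave a signal of 23.7 in *Dullard*-/- and 690 in *Dullard*+/-. After scaling it was 27.0-fold lower in *Dullard*-/-, a log2 fold change of -4.75 ± 0.19. The error is the SD between replicate spots of like signal on each array, combined over both arrays, and leaves out the spread between embryos and between probes. Where several spots or probes were averaged, the error given is that of their mean, and so is smaller than this SD. The probe was well above background on both arrays, where the lowest signals well above background were 7.27 in *Dullard*-/- and 5.99 in *Dullard*+/-. Where the probe lies in the transcript is unknown from the sources used here.

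*Was* was the lowest of all genes measured, and stood apart from the rest. The next lowest were *Dynlrb2* (5.28-fold lower) and *Dullard* (4.31-fold lower). Genes with a *Dullard*+/- signal within 2-fold of that of *Was* numbered 2953. The nearest of them in fold change was *Dullard* at -2.11, which is 2.64 away on the log2 scale, followed by *Gata1* at -1.30, *Kcnc4* at -1.26 and *Sema4b* at -0.88. These distances rest on 2 samples.

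*Baiap2l1* (NM_025833, chromosome 5), which encodes the IRSp53 relative IRTKS found in epithelial cells, differed in the other direction. Its single probe gave 157 in *Dullard*-/- and 36.0 in *Dullard*+/-. After scaling it was 4.70-fold higher in *Dullard*-/-, a log2 fold change of 2.23 ± 0.14, and ranked 4 from the top of all genes. Just above it stood *Pdgfrb* at 2.44 and just below it *Lefty1* at 2.19. Among the 3884 genes with a *Dullard*+/- signal within 2-fold of its own, *Lefty1*, *Pdgfrb*, *Vldlr* (4.01-fold higher) and *Tuba8* (3.54-fold higher) were nearest in fold change, at distances of 0.04 to 0.41 on the log2 scale.

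Both extremes rest on 1 probe each, at a mean signal in the second dimmest of 4 equal groups of genes. In that group 0.948% of 3693 genes were higher and 0.704% were lower by 2-fold or more. The mean includes the low *Dullard*-/- value of *Was*. In *Dullard*+/- alone, *Was* was brighter than 78.7% of genes and *Baiap2l1* brighter than 21.8%. With normexp background correction of the median spot signals and an offset of 50, *Was* was at -3.16 and *Baiap2l1* at 1.20. Both stayed past 2-fold under that setting.

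**Figure D2:**
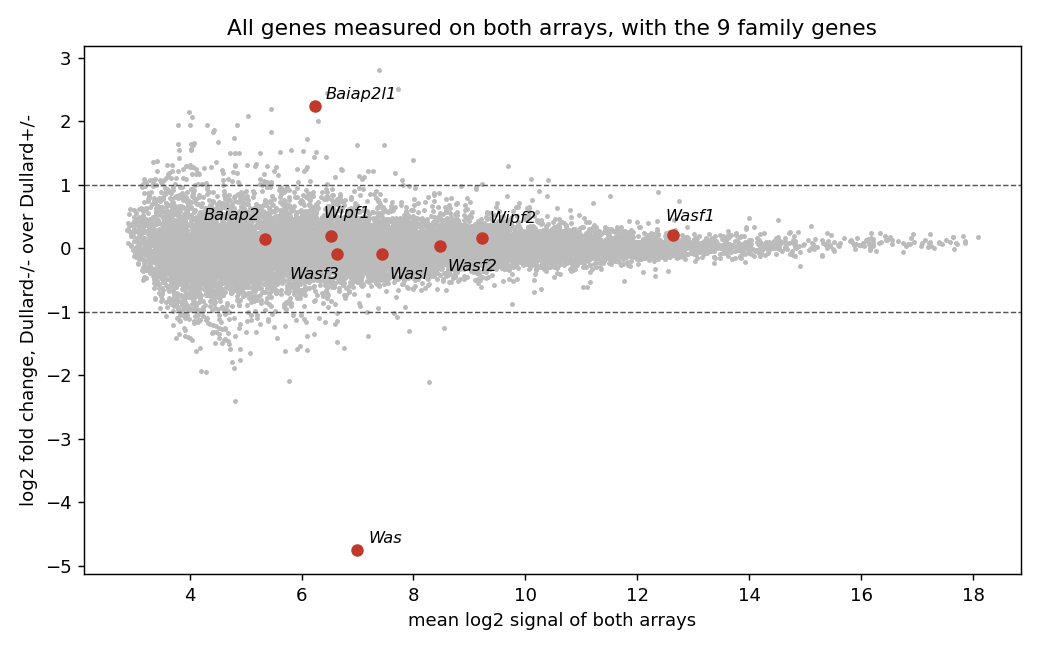
The vertical axis gives log2 of the *Dullard*-/- to *Dullard*+/- ratio for 14771 genes against their mean log2 signal (horizontal axis), with the 9 family genes in red and dashed lines at 2-fold. *Was* lies at -4.75, below every other gene, *Baiap2l1* at 2.23, and the other 7 between -0.09 and 0.20.

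The bases before the start sites of these 2 genes are shown because they stand at opposite ends of the comparison. Each run holds the 250 bases upstream of the start in the RefSeq promoter table (GRCm38.p6, minus strand), written 5′ to 3′. For *Was*, at chrX:8090492-8090741, capitals mark GGAA on either strand, the core that ETS factors bind. For *Baiap2l1*, at chr5:144358113-144358362, capitals mark GGGCGG on either strand, the GC box.
*Was*: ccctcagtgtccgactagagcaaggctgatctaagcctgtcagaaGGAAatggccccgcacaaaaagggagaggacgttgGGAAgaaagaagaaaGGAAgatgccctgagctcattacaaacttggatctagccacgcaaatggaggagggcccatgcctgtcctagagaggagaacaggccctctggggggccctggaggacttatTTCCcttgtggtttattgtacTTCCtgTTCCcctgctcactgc
*Baiap2l1*: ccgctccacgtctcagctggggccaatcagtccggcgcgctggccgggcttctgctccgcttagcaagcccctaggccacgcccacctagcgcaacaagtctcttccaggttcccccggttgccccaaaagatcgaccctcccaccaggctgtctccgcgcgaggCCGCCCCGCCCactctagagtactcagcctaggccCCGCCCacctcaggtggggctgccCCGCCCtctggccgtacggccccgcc

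The *Was* window holds GGAA 6 times, and 8.69% of 32851 windows of the same length hold it that often, while 93.4% hold it at least once. It holds no GC box. The *Baiap2l1* window holds the GC box 4 times, with 1 base shared between a pair of matches, and 4.09% of windows hold it at least that often, while 32.7% of windows hold it at least once. It holds GGAA 2 times. Neither window has GATA or TATAAA, which 53.6% and 12.4% of windows hold on either strand. Of the 9 family genes, 8 have GGAA, 7 the GC box, 3 GATA and 1 TATAAA. A match of letters is a description, and does not show that a factor binds.

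N-WASP, encoded by *Wasl* (NM_028459, chromosome 6), is the widely expressed relative of WASP. One of its probes gave 245 in *Dullard*-/- and 241 in *Dullard*+/-, a log2 fold change of 0.14. The other gave 108 in *Dullard*-/- and 144 in *Dullard*+/-, at -0.31. Their mean was -0.08 ± 0.07, so the value of *Wasl* lay 4.67 away from that of *Was* on the log2 scale.

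The WAVE genes lay close to 0. *Wasf1* (NM_031877, chromosome 10), which encodes WAVE1, gave 6544 in *Dullard*-/- and 6144 in *Dullard*+/- on 1 probe, a log2 fold change of 0.20 ± 0.08. *Wasf2* (NM_153423, chromosome 4), for WAVE2 of lamellipodia, has 3 probes. They gave 1087, 163 and 232 in *Dullard*-/-, against 1231, 187 and 210 in *Dullard*+/- in the same order, with scaled ratios of 0.954, 0.942 and 1.19 that average 0.03 ± 0.06 on the log2 scale.

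*Wasf3* (NM_145155, chromosome 5), for WAVE3, has a pair of probes that went apart. One gave 148 in *Dullard*-/- and 117 in *Dullard*+/-, a log2 fold change of 0.45 ± 0.11. The other gave 57.7 in *Dullard*-/- and 96.6 in *Dullard*+/-, at -0.63 ± 0.13. Their mean of -0.09 therefore describes neither probe, and the gap of 1.08 on the log2 scale was wider than in 97.4% of the 3747 genes with 2 or more probes.

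The WIP genes, whose products bind and stabilise WASP and N-WASP, had means close to 0. *Wipf2* (NM_197940, chromosome 11) gave 608 in *Dullard*-/- and 587 in *Dullard*+/- on its probe, a log2 fold change of 0.16 ± 0.09. *Wipf1* (NM_153138, chromosome 2) encodes WIP, the partner of WASP in blood cells. One of its probes gave 111 in *Dullard*-/- and 80.2 in *Dullard*+/-, and the other 80.7 in *Dullard*-/- and 100.1 in *Dullard*+/-. The probes were at 0.58 ± 0.12 and -0.20 ± 0.12, with a mean of 0.19 that describes neither. Their gap was wider than in 92.3% of the genes with 2 or more probes.

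*Baiap2* (chromosome 11), which encodes IRSp53 and is the nearest relative of *Baiap2l1* in this set, has probes to different RefSeq transcripts. The probe to NM_001037755 gave 74.4 in *Dullard*-/- and 55.8 in *Dullard*+/-, a log2 fold change of 0.53 ± 0.13. The probe to NM_130862 gave 23.0 in *Dullard*-/- and 29.0 in *Dullard*+/-, at -0.22 ± 0.24. The mean was 0.15 ± 0.14, which is 2.08 below *Baiap2l1* on the log2 scale. *Baiap2l2*, the third I-BAR relative of this kind, gave 209 in *Dullard*-/- and 210 in *Dullard*+/- (0.11 ± 0.10).

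In all 5 family genes with more than 1 probe the probes lay on both sides of 0, as in 47.1% of the 3747 such genes on the array. The pooled SD between probes of a gene was 0.29 over these genes. The means of all 7 genes other than *Was* and *Baiap2l1* were smaller than this in size. The signs of several also moved with the settings: *Wasf2* was at -0.08 without scaling, and with the brightest probe *Wasf2* was at -0.07, *Wasl* at 0.14 and *Wasf3* at 0.45. *Wipf1* and *Baiap2* kept their sign with the brightest probe, but were at 0.58 and 0.53, larger than the pooled SD.

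**Figure D3:**
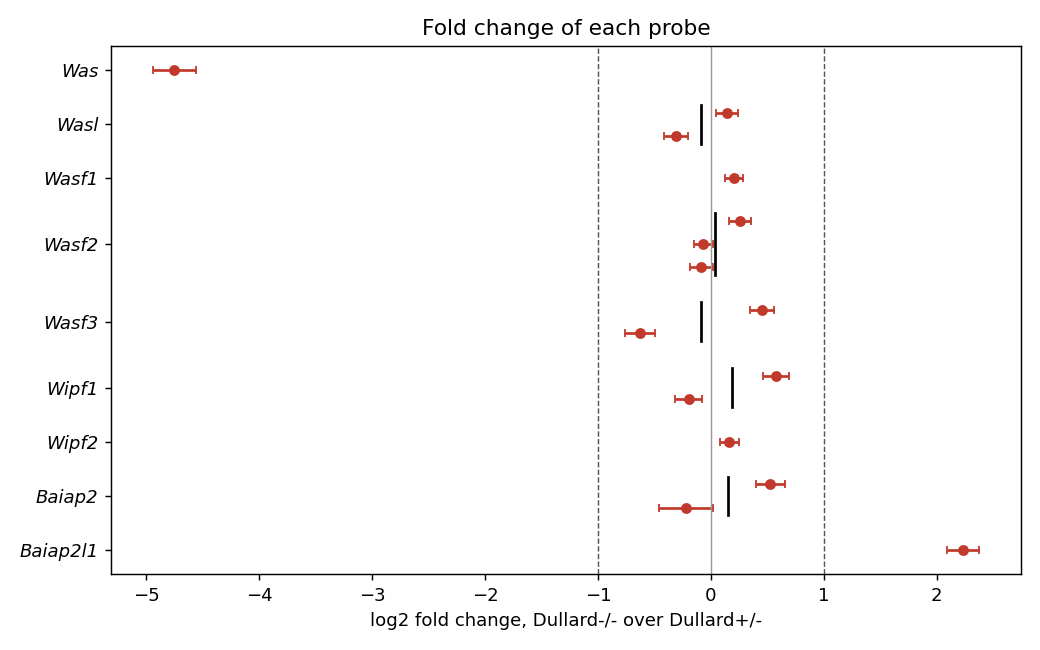
The horizontal axis gives log2 of the *Dullard*-/- to *Dullard*+/- ratio for each of the 15 probes of the 9 genes. Bars show the SD among replicated spots of similar brightness, black lines are the mean over the probes of a gene and dashed lines mark 2-fold. The probes of *Wasf3*, at 0.45 and -0.63, are the farthest apart.

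Other genes of the pathway were then listed. *Was* and *Baiap2l1* were chosen for their extreme values, so a gap between them and these genes is not read as a result. Across 9 lists of actin regulators, 115 of 121 genes were measured, of which 1 was higher and none was lower by 2-fold or more, and the median was -0.03 on the log2 scale. No test was run, and over all genes measured 0.894% were higher and 0.765% were lower by that margin. Of these genes, 112 lay within 1.5-fold.

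The partners with which WAVE proteins form their complex gave no gene past 2-fold among 8, with a median of 0.03. The highest was *Nckap1l*, for the blood-cell subunit HEM1 (81.2 in *Dullard*-/- and 73.3 in *Dullard*+/-, 0.26 ± 0.05). The lowest was *Abi3* (15.5 in *Dullard*-/- and 24.8 in *Dullard*+/-, -0.56 ± 0.28). In the Arp2/3 complex, the shared target of WASP and WAVE, none of 10 subunits was past 2-fold, with a median of -0.04. The subunit genes lay between *Arpc5* at -0.45 ± 0.06 and *Actr3b* at 0.16 ± 0.11. Of 9 genes that restrain or disassemble Arp2/3 branches, none was past 2-fold (median 0.14), with *Coro1a*, for a coronin of blood cells, at 0.38 ± 0.21 and *Coro2a* at -0.35 ± 0.30. *Coro2a* was dim (9.07 in *Dullard*-/- and 12.5 in *Dullard*+/- over 2 probes). It was at 0.15 with the brightest probe and at 0.01 with normexp.

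The activators CDC42 and RAC1 had values close to 0. *Cdc42*, the activator of WASP, gave 3357 in *Dullard*-/- and 3789 in *Dullard*+/- (-0.06 ± 0.06), and *Rac1*, that of WAVE, 5258 in *Dullard*-/- and 6005 in *Dullard*+/- (-0.08 ± 0.06). Of 23 measured adaptors and membrane-curving partners (24 listed), none was past 2-fold (median -0.01), with *Sh3pxd2a*, for the podosome scaffold TKS5, at 0.62 ± 0.24 and *Crk* at -0.26 ± 0.08.

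Of the partners of IRSp53 and the proteins of filopodial tips, 12 of 16 were measured, with a median of -0.03 and none past 2-fold. The highest was *Eps8l3* (124 in *Dullard*-/- and 79.7 in *Dullard*+/-, 0.75 ± 0.11) and the lowest *Eps8* (239.6 in *Dullard*-/- and 334 in *Dullard*+/-, -0.36 ± 0.09), whose product binds IRSp53 directly. The other nucleation promoters and relatives (9 genes, median 0.09) ran from *Hcls1*, the blood-cell form of cortactin, at -0.22 to *Mtss2* at 0.28. The genes of actin monomers and filament turnover (18 genes, median -0.07) ran from *Gsn* at -0.29 to *Cap2* at 0.27.

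The formins, which start unbranched filaments, held the gene past 2-fold. *Daam2*, for a formin tied to WNT signalling through Dishevelled, gave 35.4 in *Dullard*-/- and 16.3 in *Dullard*+/- (1.24 ± 0.24). The probe is dim, and the value was 0.45 with normexp. *Fmn1* was well above background in *Dullard*+/- alone, with signals of 6.50 in *Dullard*-/- and 18.5 in *Dullard*+/-, and was at least 2.35-fold lower in *Dullard*-/-. For this bound the *Dullard*-/- value was taken as its detection floor or its own signal, whichever was higher. The median of the 12 measured formins was 0.04.

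**Figure D4:**
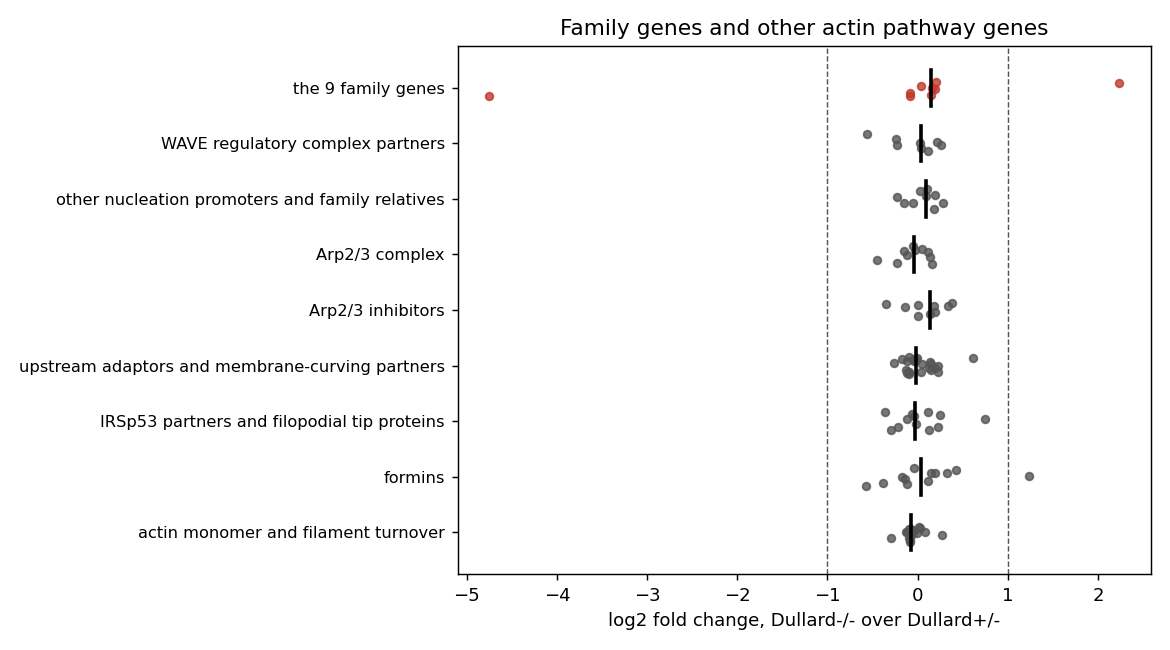
The horizontal axis gives log2 of the *Dullard*-/- to *Dullard*+/- ratio for the 9 family genes in red and of the measured genes of 8 of the lists of other actin regulators in grey, 1 point per gene, with black lines at the medians and dashed lines at 2-fold. *Was* and *Baiap2l1*, which were chosen for their extreme values, lie outside the range of the lists shown. In those lists *Daam2* at 1.24 is the highest and *Fhod3* at -0.57 the lowest.

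Since WASP is known from blood cells, blood genes were set beside *Was*. Of the leukocyte list, 12 of 22 genes were measured, with a median of 0.01. The summed signal of the list, in multiples of the 75th percentile of the array, was 8.22 in *Dullard*-/- and 7.76 in *Dullard*+/-. Such sums weigh the brightest probes most, here *Csf1r*, *Lcp1*, *Nkg7* and *Itgam*. *Ptprc*, the pan-leukocyte CD45, gave 41.7 in *Dullard*-/- and 45.2 in *Dullard*+/-, the same value after scaling to within 0.01 on the log2 scale. *Spi1*, *Cd53* and *Tyrobp* were not well above background on either array, and *Cd52*, *Aif1* and *Adgre1* were so in *Dullard*+/- alone, with bounds of at least 1.04-fold, 1.03-fold and 1.11-fold lower. The lowest measured gene was *Fcer1g* at -0.55 ± 0.26. One gene of the list, *Laptm5*, was at least 2-fold higher (1.62 ± 0.34, but 0.41 with normexp) and none was at least 2-fold lower. Actin regulators known as blood-cell forms, chosen after their values had been seen (*Nckap1l*, *Hcls1*, *Rac2*, *Coro1a*, *Vav1*, *Dock2*, *Btk* and *Wipf1*), lay between -0.22 and 0.38, with a median of 0.10. Their signals were low, from 7.90 to 94.6 in *Dullard*-/- and from 9.17 to 89.6 in *Dullard*+/-, and the error of *Btk*, the dimmest, was 0.48. The range depends on this choice, since *Abi3* at -0.56 and *Fmnl1* at 0.42 ± 0.41, from the same lists of actin regulators, were not included.

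The markers of primitive blood and endothelium had a median of -0.32 over 11 measured of 13, with 1 gene higher and 2 lower by 2-fold or more. Across the settings this median ran from -0.43 to -0.07, and it was nearest to 0 with normexp. *Hbb-bh1*, an embryonic globin, gave 25.6 in *Dullard*-/- and 117 in *Dullard*+/- (-2.08 ± 0.20), and *Gata1*, the regulator of red cells and megakaryocytes, gave 148 in *Dullard*-/- and 394 in *Dullard*+/- (-1.30 ± 0.10). *Cdh5*, for the cadherin of endothelium, read 20.7 in *Dullard*-/- and 10.4 in *Dullard*+/-, 2.15-fold higher. With normexp *Gata1* was at -1.05, *Hbb-bh1* at -0.999, just short of 2-fold, and *Cdh5* at 0.29. The scaled sum of the list was 6.86 in *Dullard*-/- and 6.66 in *Dullard*+/-. *Kdr*, the brightest gene, was at 0.64 ± 0.04 as a mean of 2 probes, but at 0.20 on the brighter one. In somewhat older *Dullard*-/- embryos, the paper saw less *Flk1* (*Kdr*) in extraembryonic mesoderm by in situ hybridization. Of the 11 measured genes, 3 lay above 0, among them *Etv2* at 0.86 ± 0.08, and 8 below. *Klf1* and *Hba-x* were not well above background on either array.

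The adult red blood cell list had a scaled sum of 1.01 in *Dullard*-/- and 2.29 in *Dullard*+/-, and a median of -0.78 over 4 measured of 9. *Hba-a2* was at -1.38 ± 0.11 (-0.94 with normexp). Of the other measured genes, *Hba-a1* was at -0.95 and *Alas2* at -0.61, while *Slc4a1* was above 0 at 0.13 ± 0.24. *Hbb-bt* and *Hbb-bs*, well above background in *Dullard*+/- alone, were at least 7.18-fold and 2.93-fold lower in *Dullard*-/-. Of 8 platelet and megakaryocyte markers, 4 were measured, between -0.10 and 0.26, and *Pf4*, *Gp9* and *Ppbp* were not well above background on either array. Their scaled sum was 0.696 in *Dullard*-/- and 0.649 in *Dullard*+/-. Of the decidua list, 6 of 10 were measured with a median of 0.01, *Prl8a2*, *Dcn* and *Lum* were not well above background on either array, and the scaled sum was 3.16 in *Dullard*-/- and 3.29 in *Dullard*+/-. The part of blood in the *Was* value was not tested.

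**Figure D5:**
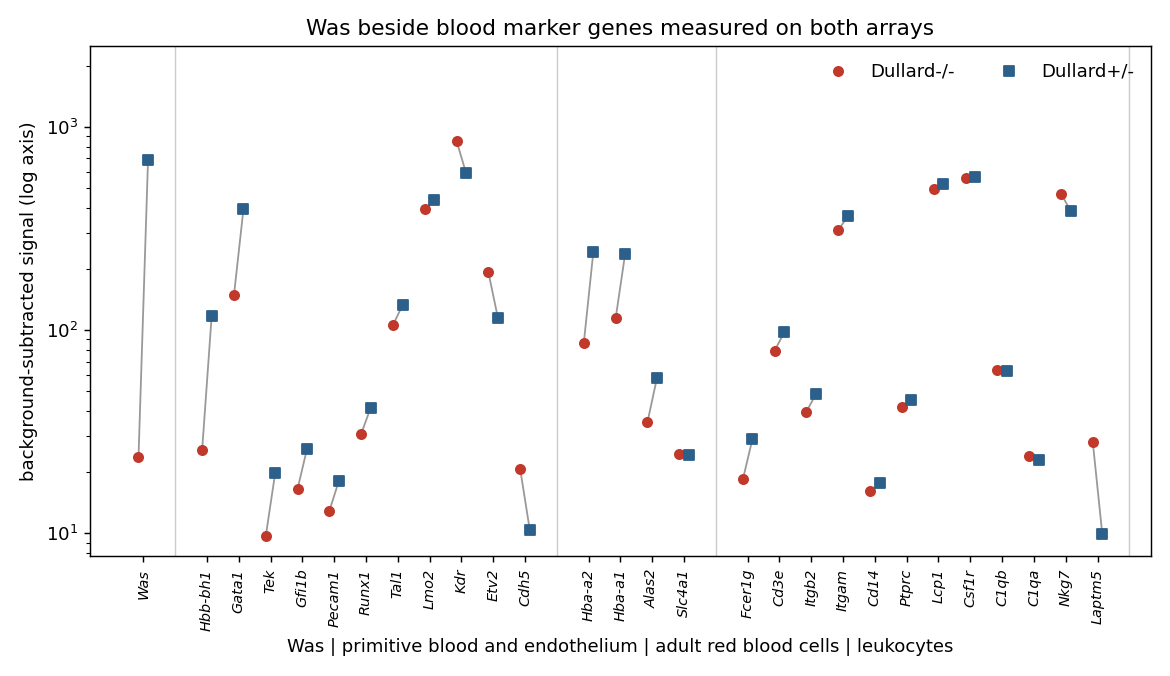
Background-subtracted signal (vertical log axis) of *Was* and of the measured genes of 3 blood lists, with *Dullard*-/- as circles on the left and *Dullard*+/- as squares on the right of each pair, 1 array per genotype. *Was* was 27.0-fold lower in *Dullard*-/-, *Hbb-bh1* 4.23-fold lower and *Gata1* 2.46-fold lower, while *Ptprc* gave 41.7 in *Dullard*-/- and 45.2 in *Dullard*+/-.

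*Gata1* is also a neighbour of *Was* on chromosome X, 3 protein-coding genes away in the GRCm38.p6 annotation. All 6 of the nearest protein-coding genes, 3 on each side, were measured. *Gata1* and *Glod5* (8.42 in *Dullard*-/- and 23.3 in *Dullard*+/-, -1.35 ± 0.38) were at least 2-fold lower, and the other 4 lay between -0.29 for *Suv39h1*, which is next to *Was*, and -0.01 for *Rbm3*. *Glod5* rests on 1 dim probe, whose *Dullard*-/- signal is close to the lowest well above background on that array, 7.27. Of 547 X-linked genes measured, 5 were higher and 8 lower by 2-fold or more, the median was -0.02, and *Glod5* was the lowest after *Was*. Over all genes measured the shares were 0.894% higher and 0.765% lower. The 8 lower genes include *Was*, *Gata1* and *Glod5*, and nothing is read from these counts. Around *Baiap2l1*, 4 of 6 neighbours were measured, between -0.37 and 0.73, and none was past 2-fold.

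Epithelial genes were set beside *Baiap2l1*, whose product is known from epithelia. Of 20 genes, 19 were measured, with a median of 0.09, none past 2-fold, and a scaled sum of 95 in *Dullard*-/- and 98.8 in *Dullard*+/-. *Cdh1*, the epithelial cadherin, gave 184 in *Dullard*-/- and 169.5 in *Dullard*+/- (0.23 ± 0.03), and *Epcam* was at 0.10 ± 0.08. The list ran from *Cldn4* at -0.50 to *Cldn3* at 0.42. The part of epithelial content in the *Baiap2l1* value was not tested beyond these levels. The epiblast list had a median of 0.26 and the visceral endoderm list one of -0.02, with no gene past 2-fold in either. In the streak and mesoderm list (9 measured of 10, median -0.01), *Mixl1* was higher at 1.39, and *Msgn1* at -1.88 and *T* at -1.19 were lower. With normexp *Mixl1* was at 1.06, *Msgn1* at -0.47 and *T* at -0.70. In the trophoblast list (median -0.10) *Esx1*, well above background in *Dullard*-/- alone, was at least 2.66-fold higher, with signals of 14.8 in *Dullard*-/- and 6.01 in *Dullard*+/-. *Prl3d1* was at 1.07, but at 0.29 with normexp, 0.64 without a filter on dim probes and 0.95 without scaling.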

How the data were processed

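The authors hybridised Cy3-labelled material of each genotype to 1 array of the Whole Mouse Genome 4×44K v2 design; Agilent Feature Extraction 10.10 gave the deposited spot intensity, already corrected for background. The paper and the labels give different amounts of RNA and different amplification kits. Both arrays share a slide and a scan. The deposited table of processed intensity values is linear, being the scanner signal multiplied by 1 constant per array (5.20 for *Dullard*-/- and 4.91 for *Dullard*+/-). The basis of the constants is unknown from the sources used here, and the table was an alternative.

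From the 43020 spots that are not controls, 206 marked as outliers on either array were left out. Log2 signals were taken relative to the 75th percentile of each array, replicate spots were averaged, and each gene took the mean log2 ratio of *Dullard*-/- to *Dullard*+/- over the probes that passed the well-above-background flag of each array. The study also averaged a gene's signals, without saying on which scale or after which filter. Accessions without versions were matched to a RefSeq gene table (GRCm38.p6), which named 30235 spots and left 12785 unnamed. Spot errors pool, on each array, the 40 replicated probes nearest in signal of 399. Precision is limited by having 2 arrays.

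The genes named are the family genes, *Dullard*, the genes of each pathway list at least 2-fold higher or lower or else its extremes, and the genes nearest to *Was* and *Baiap2l1*. Further pathway and marker genes were named after their values were seen, as were the neighbouring and X-linked genes. The members and lists were chosen with earlier results of these data known. No test was possible with a single array of each genotype. Some listed genes and 1 list are not reported here. The steps were tested on simulated arrays. Alternatives used limma 3.58.1 in R 4.3.3, and the rest Python 3.11.15 with pandas 2.3.3, numpy 2.4.6 and matplotlib 3.10.9.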

Additional observations from a re-analysis of the deposited data

How the results depend on the processing

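Alternatives were quantile, loess and median scaling, the 75th percentile over probes well above background, no scaling, normexp on median signals, no filter on dim probes, a minimum signal of 20, the brightest probe, averaging folds on the linear scale and the authors' processed values. Under all 11, *Was* was at least 2-fold lower (log2 fold change -4.87 to -3.16) and *Baiap2l1* at least 2-fold higher (1.20 to 2.27), and no other family gene was past 2-fold. The genes past 2-fold numbered 10 higher and 5 lower with normexp, 484 and 778 without a filter, and 59 and 43 with a minimum signal of 20. The share higher was 38.4% without a filter and 66.7% with normexp. Among the pathway genes, 0 were at least 2-fold higher with normexp, and 0 with the minimum signal, which leaves *Daam2* out. Without a filter 2 were at least 2-fold lower, *Fmn1* (-1.40) and *Shank2* (-1.01), each dim on at least 1 array. The median of the adult red blood cell list was -0.46 with normexp and -1.38 without a filter. No replicate could be left out, and no paired analysis was possible because each genotype has 1 array. The normexp setting changes the input signal, the background method and the offset together. The cause of these shifts was not tested, apart from the number of genes each filter admits.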
